A study of Mus musculus with 9 samples.

Results

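Cytosolic ribosomal protein genes were followed in bone marrow LSK cells, the sorted fraction that lacks lineage markers and carries Sca-1 and Kit, where blood stem cells and early progenitors are found. The genes were chosen by name. A probe was included when its gene symbol on the array platform was Rpl or Rps followed by a number, with an optional final a or x, or was Rplp0, Rplp1, Rplp2 or Rpsa. Kinases of the Rps6k family, pseudogenes and mitochondrial ribosomal proteins were not included. The rule gave 84 probes for 55 genes, of 34885 singly named probes for 19057 genes on the array. Of the 55 genes, 33 encode proteins of the large subunit and 22 encode proteins of the small subunit.

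The series compared Socs2-/- mice (4 arrays) with wt mice (5 arrays) to find transcripts that depend on Socs2, a suppressor of cytokine signalling, after injury to the marrow. Mice of both genotypes were male, of strain C57BL/6 and 12 weeks old, and all had received 5-fluorouracil, a drug that kills dividing cells, at 150 μg per g of body weight. Marrow was taken 6 days after the drug, so no level from an untreated mouse enters any comparison. The labels state neither how the Socs2 allele was made nor whether an array came from 1 mouse or from pooled mice. All p-values below therefore reflect array-to-array spread, part of which may be technical.

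Each cytosolic ribosome joins a small subunit, which holds and decodes the messenger RNA, to a large subunit, which forms the peptide bond and passes the new chain out through a tunnel. Ribosomal protein transcripts are among the most abundant in a cell, and most begin with a C followed by a run of pyrimidines, the terminal oligopyrimidine tract, through which growth signals control their translation. In blood formation the family is known for Diamond-Blackfan anaemia, in which a person has 1 defective copy of a ribosomal protein gene and makes too few red cells. Array levels are of transcripts, so they do not report how well these transcripts were translated.

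Start regions of 6 members described below are shown first, because the pyrimidine tract lies at the start of the transcript. They were taken from RefSeq promoters on the mouse build GRCm38.p6, in which 45 of the 55 genes had an entry with 53 promoters in all. Each line runs 5′ to 3′ on the gene's strand from 30 bases before the annotated start through the first 25 bases of the transcript. Capitals mark runs of 6 or more pyrimidines that begin with C. The 6 are Rplp2 at chr7:141447621-141447675 on the plus strand, Rps10 at chr17:27635220-27635274 on the minus strand, Rpl4 at chr9:64173357-64173411 on the plus strand, Rpl14 at chr9:120571487-120571541 on the plus strand, Rpl13a at chr7:45128721-45128775 on the minus strand and Rplp0 at chr5:115559437-115559491 on the plus strand.
Rplp2: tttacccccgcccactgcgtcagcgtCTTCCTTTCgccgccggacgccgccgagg
Rps10: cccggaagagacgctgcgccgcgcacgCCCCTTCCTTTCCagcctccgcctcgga
Rpl4: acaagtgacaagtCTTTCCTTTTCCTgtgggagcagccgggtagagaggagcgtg
Rpl14: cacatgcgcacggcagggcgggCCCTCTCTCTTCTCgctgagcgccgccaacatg
Rpl13a: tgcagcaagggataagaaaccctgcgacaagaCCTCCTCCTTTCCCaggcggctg
Rplp0: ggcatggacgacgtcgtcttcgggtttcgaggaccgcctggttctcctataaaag
The first 5 hold such a run within this window, and Rplp0 does not. The window also covers bases before the annotated start, and the run of Rpl4 lies wholly among these. In the Rplp0 window the letters TATAAA lie after the annotated start. Bases past the window were not searched for a run, so Rplp0 is not shown to lack the tract.

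Such a run was present in 35 of the 53 member promoters, or 66.0%, against 37.9% of all 32851 promoters in windows of the same length. Over the full 300-base promoters, searched on both strands, CCGGAAG, a form of the core bound by ETS-family factors, was in 39.6% of member promoters and 8.86% of all. AAGATGG, a form of the site of the factor YY1, was in 13.2% of member promoters and 6.34% of all. TATAAA, the TATA box, was in 9.43% of member promoters and 13.6% of all. These are matches of letters counted separately for each motif, which may overlap one another, and several promoters of 1 gene share sequence.

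Arrays were read as the authors' deposited log2 intensities, on which 1 unit is a doubling. A value of 7.5 served as the minimum for a probe to count as above background. Array medians lay between 6.91 and 7.18. The share of all probes above 7.5 was 31.1% and 31.0% on Socs2-/- arrays 1 and 2, 35.1% and 34.8% on Socs2-/- arrays 3 and 4, and between 34.3% and 35.4% on wt arrays. Those first 2 Socs2-/- arrays also had the lowest median correlations with the other arrays, at 0.68 and 0.65 over all probes, against 0.78 to 0.82 for the rest. The member count, the subunit medians and many single genes below are also given without them. Most counts and medians of smaller groups and gene lists are given for all arrays alone, and some shift without them. The targeted gene Socs2 read 6.80, 6.78, 6.58 and 6.70 on Socs2-/- arrays, all below 7.5, and 9.59, 9.39, 10.36, 9.38 and 9.65 on wt arrays. It was the 1 gene of 8543 to pass an adjusted p of 0.05 in limma (adjusted p = 0.0362), and with a single array left out 0 to 7 genes passed, 7 of them without wt array 3.

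A probe entered the test when it read above 7.5 on at least 4 of 9 arrays, and the brightest such probe stood for its gene. Of the 84 member probes, 72 passed and 12 did not, which left 51 genes, 31 of the large and 20 of the small subunit. The 4 genes with no probe past the filter were Rpl21, Rpl6, Rps15a and Rpsa, the last encoding a small subunit protein also known as a laminin receptor. Rpl5, Rpl11, Rps27 and several others of the family had no singly named probe under the rule and are not analysed here. Members were mostly bright: 46 of the 51 read above 7.5 on all 9 arrays, and 33 had a mean above 12. The remaining 5, which read at or below 7.5 on at least 1 array, were Rpl14, Rpl17, Rpl22, Rpl4 and Rps20.

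**Figure D1:**
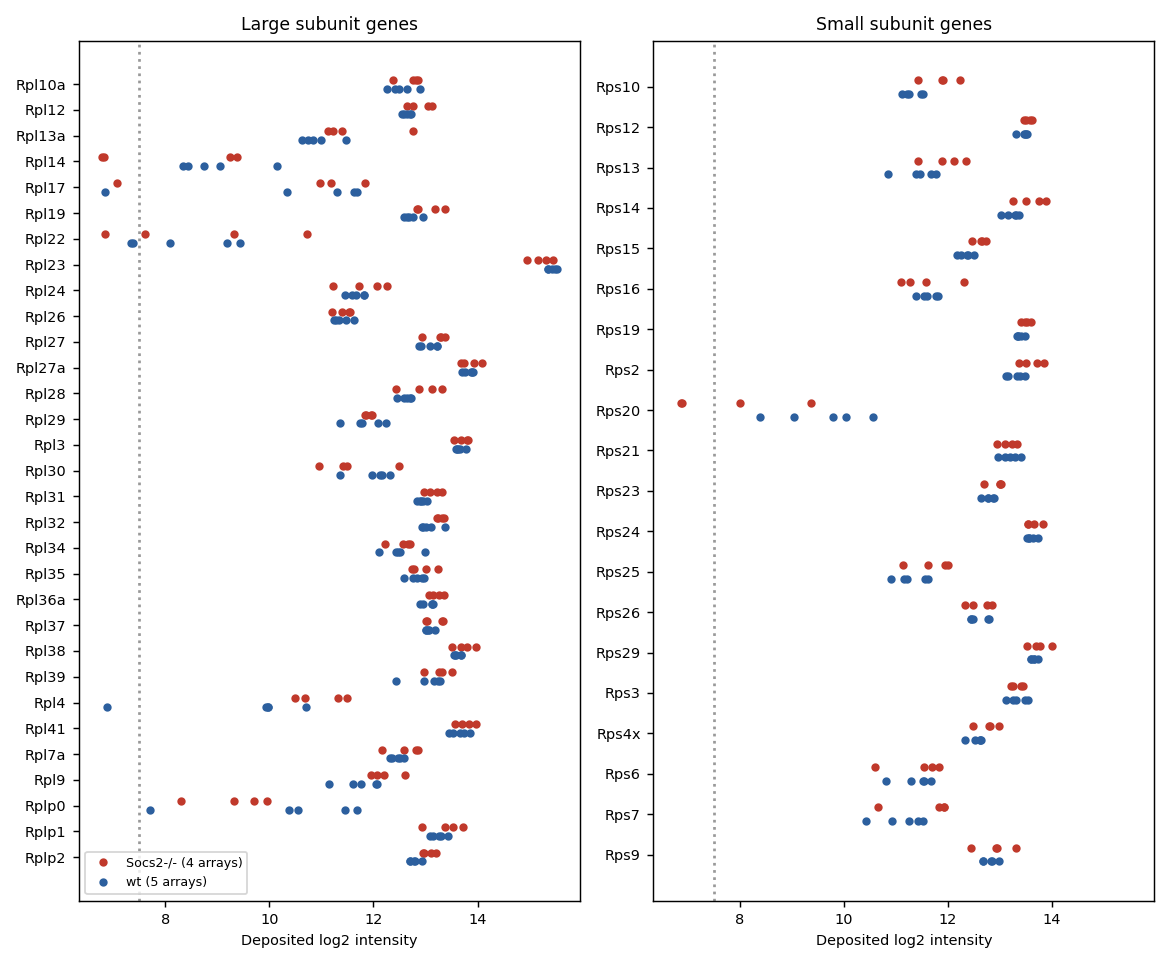
Deposited log2 intensity (horizontal axis) of the 51 ribosomal protein genes tested, with Socs2-/- arrays (4 points, upper) and wt arrays (5 points, lower) on each gene's row, and the minimum of 7.5 dotted. Most members lie above 11 with overlapping genotypes, while Rpl14, Rpl17, Rpl22, Rpl4 and Rps20 reach below 7.5 on at least 1 array.

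No member passed the adjusted threshold in limma, which 0.0117% of all genes passed, and member adjusted p-values ran from 0.415 to 0.993. At an unadjusted p under 0.05, 0 of 51 members were higher in Socs2-/- (2.29% of all genes) and 1 was lower (7.87% of all genes), which was Rps20. Means were nonetheless higher in Socs2-/- for 42 of 51 members, or 82.4%, against 40.5% of all genes tested. The median difference, Socs2-/- minus wt, was 0.14 over members and -0.18 over all genes. Among members with a mean above 12, 30 of 33 were above 0 with a median of 0.14, and among all 331 genes that bright the share above 0 was 43.8% with a median of -0.07. Since all these genes were read on the same 9 arrays, the members are not independent of one another, and no test was made of their count or median.

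Both subunits leaned the same way. Large subunit genes were above 0 in 26 of 31 cases, with a median of 0.15 and a range of -1.03 to 1.499. Small subunit genes were above 0 in 16 of 20 cases, with a median of 0.11 and a range of -1.79 to 0.54. Centring each array on its own median over all probes moved the median of all genes to -0.06, that of large subunit genes to 0.26 and that of small subunit genes to 0.23. Without Socs2-/- arrays 1 and 2, the medians were 0.08 for both subunits and -0.03 for all genes, and the share above 0 was 37 of 51 members, or 72.5%, against 48.0% of all genes. Among genes with a mean above 12 it was then 25 of 33 members, with a median of 0.08, and 44.4% of all 331, with a median of -0.04. Leaving these arrays out made the difference over 1.5 times smaller, or turned its sign, in 33 of 51 members, 11 of which changed sign. Without Socs2-/- array 4, the small subunit median was 0.24.

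**Figure D2:**
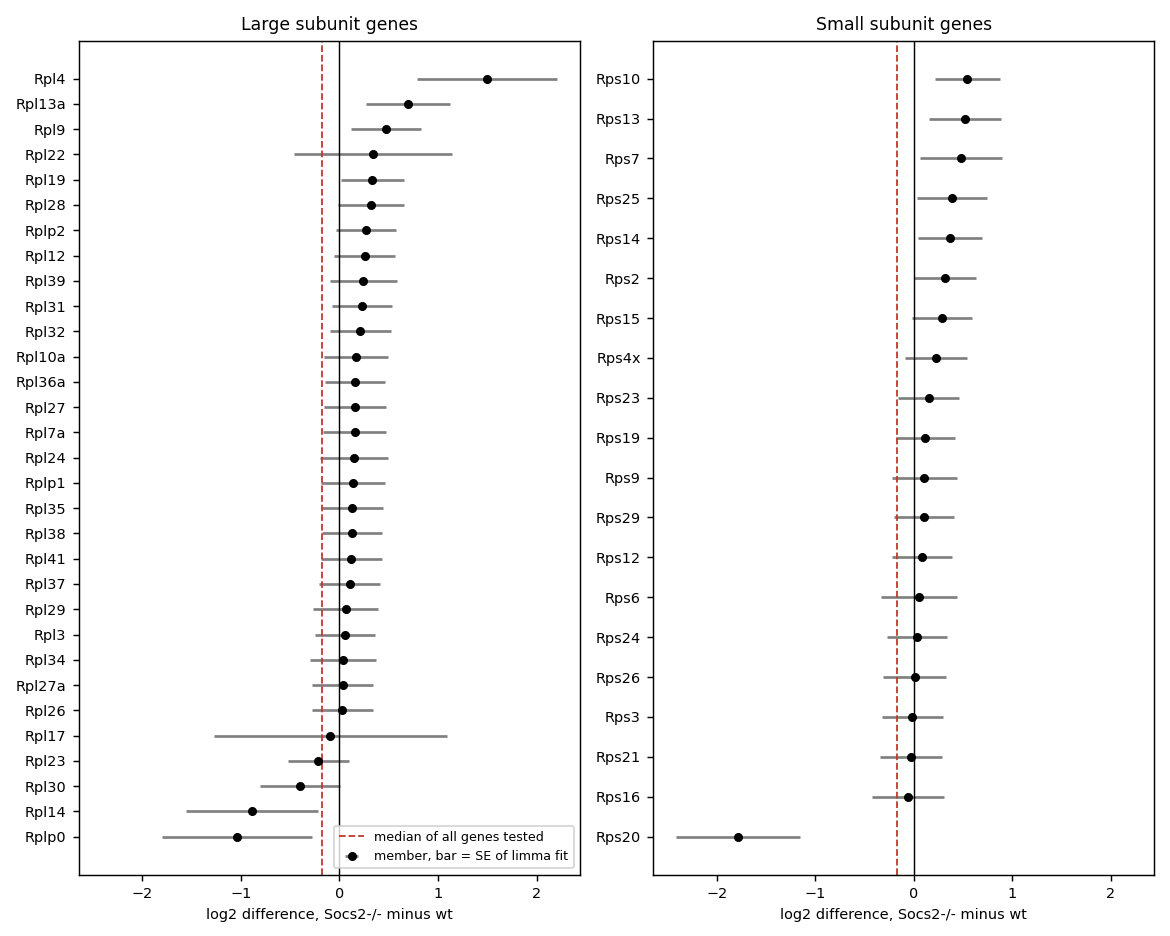
Log2 difference, Socs2-/- minus wt (horizontal axis), for each tested member by subunit, with bars showing the standard error of the limma fit, a solid line at 0 and a dashed line at the median of all 8543 genes (-0.18). Most points lie between 0 and 0.5, 42 of 51 are above 0, and Rpl4 and Rps20 are the extremes at 1.499 and -1.79.

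The difference was uneven across arrays of the same genotype. Taking each gene's deviation from its own mean over 9 arrays, the median over members was 0.19, 0.15, 0.13 and -0.11 on Socs2-/- arrays 1 to 4, and -0.10, -0.02, -0.17, -0.10 and 0.02 on wt arrays 1 to 5. Socs2-/- arrays 1, 2 and 3 thus lay above every wt array and Socs2-/- array 4 lay within the wt range. Of 51 members, 38, 33, 43 and 19 exceeded their own mean on Socs2-/- arrays 1 to 4, against 13, 22, 15, 13 and 29 on wt arrays 1 to 5. The median over all genes tested went another way on Socs2-/- arrays 1 and 2, at -0.24 and -0.39. On Socs2-/- arrays 3 and 4 it had the same sign as that over members, at 0.10 and -0.03. It was between 0.01 and 0.14 on wt arrays. Over the 331 genes with a mean above 12, the level of most members, it was nearer 0 on Socs2-/- arrays 1 to 3. There it was -0.02, -0.03, 0.05 and -0.05 on Socs2-/- arrays 1 to 4 and between -0.04 and 0.09 on wt arrays.

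**Figure D3:**
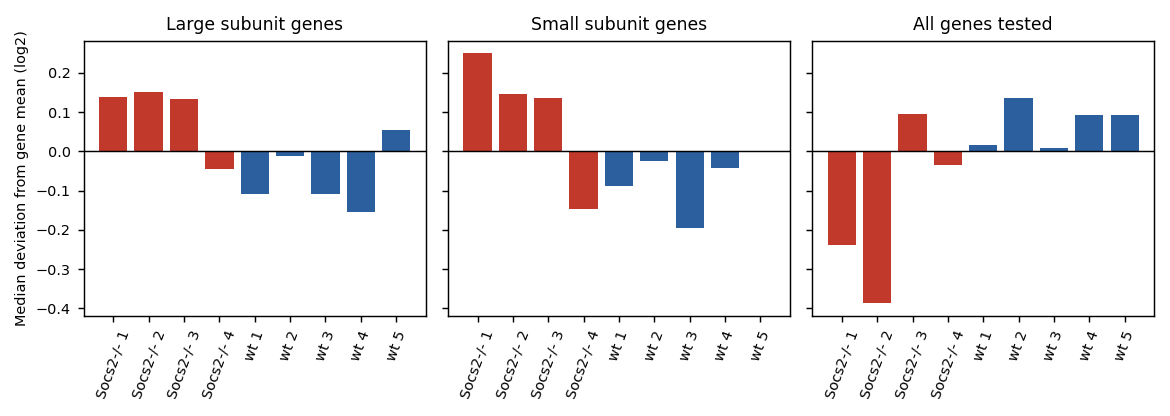
Median over genes of how far each array lay from a gene's mean over 9 arrays (vertical axis, log2), by array, for 31 large subunit genes, 20 small subunit genes and all 8543 genes tested, with Socs2-/- arrays in red left of wt arrays in blue. Socs2-/- arrays 1 to 3 are positive for both subunits and array 4 is negative, while arrays 1 and 2 are the lowest over all genes.

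Members varied little between arrays. Their median residual SD was 0.21, against 0.92 over all genes tested and 0.25 over all genes with a mean above 12. The main fit draws each gene's variance towards that of all genes, so standard errors of quiet members were near 0.30 even where their arrays differed by less. A fit that lets the variance follow the mean level gave 6 members higher at an unadjusted p under 0.05 (2.24% of all genes) and 2 lower (8.97% of all genes), none past the adjusted threshold (smallest adjusted p = 0.342 in limma). The 6 were Rps14, Rps2, Rpl19, Rplp2, Rps10 and Rpl4, and the 2 were Rpl23 and Rps20. Among genes with a mean above 12, the same fit and cutoff gave 4 of 33 members higher and 1 lower. Of all 331 genes that bright, 31 were higher and 70 lower. Rps2 lies outside the rule for named genes and is named after its values were seen.

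The stalk of the large subunit recruits and activates the translation factors that hydrolyse GTP. It is built of Rplp0, Rplp1 and Rplp2 on a base that includes Rpl12, and 3 of these 4 genes were above 0, with a median of 0.20. Rplp2, encoded on chromosome 7 and shown above with its pyrimidine run, read 12.96, 13.20, 13.11 and 12.94 on Socs2-/- arrays and 12.70, 12.77, 12.81, 12.70 and 12.92 on wt arrays. Every Socs2-/- value lay above every wt value, the closest pair being Socs2-/- array 4 (12.94) and wt array 5 (12.92). Rplp2 was the 1 member of 51 with groups apart in this direction (0.983% of all genes), and none was apart in the other (2.72% of all genes). Its mean was 0.27 higher on the log2 scale (SE 0.30, adjusted p = 0.760 in limma), or 1.21-fold. Rplp1, its partner in the stalk dimer, averaged 13.39 ± 0.33 in Socs2-/- (SD, n = 4) and 13.25 ± 0.14 in wt (SD, n = 5), and its difference of 0.14 became -0.09 without Socs2-/- arrays 1 and 2.

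Rplp0, the scaffold of the stalk on chromosome 5 and a common reference gene for expression assays, gave opposite results with its 2 probes. Probe ILMN_2744356, the brighter one that stood for the gene, read 9.96, 8.31, 9.70 and 9.32 on Socs2-/- arrays and 11.68, 10.55, 10.37, 7.72 and 11.46 on wt arrays. All 4 Socs2-/- values lay below 4 of the 5 wt values and above the fifth, wt array 4. The difference was -1.03 (SE 0.76, adjusted p = 0.641 in limma), or -1.69 without wt array 4. Probe ILMN_1249815 read 9.82, 11.53, 10.37 and 10.30 on Socs2-/- arrays and 8.61, 9.21, 7.63, 9.31 and 8.91 on wt arrays. There the groups were apart and the difference was 1.77 (limma adjusted p = 0.271 with each probe tested alone). Groups were apart in this direction for 0.983% of all genes by their brightest probe. The share over all probes was not counted. The mean of both Rplp0 probes gave 0.37. The position of each probe in the transcript was not known here, and no direction is drawn for Rplp0.

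The polypeptide exit tunnel and its rim are lined by Rpl4, Rpl17, Rpl39, Rpl19, Rpl26, Rpl31 and Rpl35, of which 6 of 7 were above 0, with a median of 0.23. Rpl4, whose long loop reaches into the tunnel wall, read 11.32, 11.49, 10.49 and 10.68 on Socs2-/- arrays and 10.71, 9.94, 6.87, 9.98 and 9.97 on wt arrays. Its low value on wt array 3 lies below 7.5, and wt array 1 overlaps the Socs2-/- range. The log2 difference was 1.499 (SE 0.71, adjusted p = 0.506 in limma), or 0.84 without wt array 3. A second Rpl4 probe gave the same picture, with 6.84 on wt array 3 and a difference of 1.25. Rpl17, which sits where the chain emerges, was near background on 1 array of each genotype, at 7.07 on Socs2-/- array 2 and 6.84 on wt array 1, and between 10.35 and 11.85 on the other 7. Its difference of -0.09 (SE 1.18) ran from -0.97 without wt array 1 to 0.97 without Socs2-/- array 2.

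The other tunnel members were brighter and steadier. Rpl19 averaged 13.06 ± 0.26 in Socs2-/- (SD, n = 4) and 12.72 ± 0.14 in wt (SD, n = 5), a difference of 0.34. For Rpl31 the brightest of 3 probes gave 13.15 ± 0.15 in Socs2-/- (SD, n = 4) and 12.92 ± 0.07 in wt (SD, n = 5), with a difference of 0.23 (0.11 without Socs2-/- arrays 1 and 2), while the other two gave 0.49 and -0.86. The differences were 0.13 for Rpl35 (0.06 without those arrays) and 0.03 for Rpl26, a protein known in human cells to bind the p53 message.

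**Figure D4:**
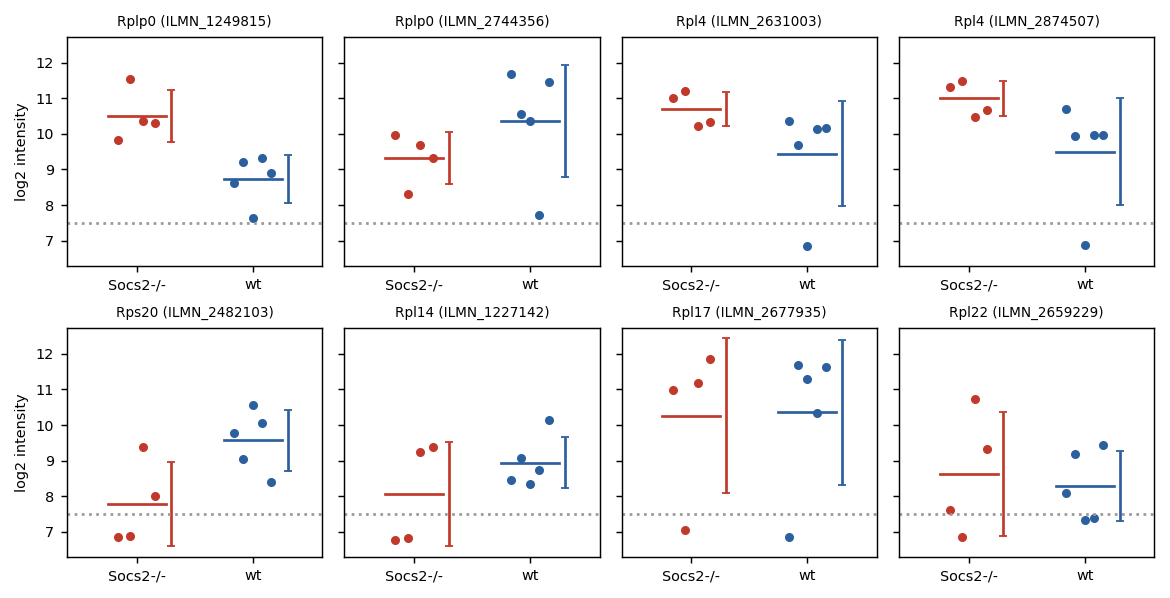
Log2 intensity (vertical axis) of 8 probes by genotype, Socs2-/- (4 points, left) and wt (5 points, right), with the mean as a horizontal line, the SD as a bar beside it and 7.5 dotted. The 2 Rplp0 probes differ in opposite directions, both Rpl4 probes share a low wt array, and Rps20, Rpl14, Rpl17 and Rpl22 mix arrays near background with arrays well above it.

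Among the 20 remaining large subunit genes 17 were above 0, with differences from -0.89 to 0.70. Rpl13a, which in human monocytic cells can leave the ribosome to silence inflammatory messages, read 12.77, 11.13, 11.40 and 11.23 on Socs2-/- arrays and 10.62, 11.47, 10.84, 10.74 and 10.99 on wt arrays. Socs2-/- array 1 stood above the rest while wt array 2 lay above the other Socs2-/- arrays, and the difference of 0.70 (SE 0.43, limma adjusted p = 0.587) was 0.32 without it. Rpl9 averaged 12.21 ± 0.28 in Socs2-/- (SD, n = 4) and 11.73 ± 0.38 in wt (SD, n = 5), a difference of 0.47 that was 0.28 without Socs2-/- arrays 1 and 2. Rpl28 had a difference of 0.32, which was 0.04 without those arrays.

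On the negative side of the large subunit, Rpl14 read 6.78, 6.82, 9.25 and 9.39 on Socs2-/- arrays and 8.44, 9.06, 8.35, 8.74 and 10.14 on wt arrays. The first 2 Socs2-/- arrays were below 7.5 and the other two lay inside the wt range. The difference was -0.89 (SE 0.67, adjusted p = 0.647 in limma), or 0.37 without Socs2-/- arrays 1 and 2. Rpl30 had -0.40, and -0.03 without them. Rpl23, a protein of the face between the subunits that can bind the p53 regulator Mdm2, read 14.96, 15.16, 15.32 and 15.44 on Socs2-/- arrays and 15.53, 15.43, 15.36, 15.49 and 15.35 on wt arrays. Socs2-/- arrays 1 to 3 lay below every wt array and array 4 lay among them. Its difference was -0.21 (SE 0.31, adjusted p = 0.822 in limma), and was -0.13 without Socs2-/- array 1 and -0.05 without Socs2-/- arrays 1 and 2. The 4 probes of the gene ranged from -0.56 to 0.11.

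The head of the small subunit turns during movement along the message. Of its 9 members, 6 were above 0, with a median of 0.10. Rps20, on chromosome 4, read 6.86, 6.89, 9.38 and 7.996 on Socs2-/- arrays and 9.79, 9.04, 10.56, 10.04 and 8.39 on wt arrays. Socs2-/- arrays 1, 2 and 4 lay below every wt array and Socs2-/- array 3 lay among them. The log2 difference of -1.79 (SE 0.63) had an unadjusted p of 0.0165 and an adjusted p of 0.415 in limma, and was -0.88 without Socs2-/- arrays 1 and 2. With those arrays below 7.5, the size of this difference is uncertain.

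Rps10, a head protein near the path of the message, went the other way. It read 11.89, 12.22, 11.91 and 11.42 on Socs2-/- arrays and 11.11, 11.22, 11.26, 11.52 and 11.49 on wt arrays. Socs2-/- arrays 1 to 3 lay above all wt arrays and array 4 lay among them. The difference was 0.54 (SE 0.33, limma adjusted p = 0.582), a 1.46-fold higher mean, and 0.35 without Socs2-/- arrays 1 and 2. Rps25, needed for some viral internal ribosome entry sites, had 0.39, and 0.09 without those arrays. Rps16 (-0.06) and Rps3 (-0.02), of which Rps3 lies at the entry of the message channel, were close to 0, and a second Rps3 probe gave 0.23.

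The body and platform of the small subunit had 10 of 11 members above 0, with a median of 0.15. Rps14, the platform protein whose loss underlies the anaemia of the human 5q- syndrome, read 13.87, 13.49, 13.75 and 13.24 on Socs2-/- arrays and 13.15, 13.37, 13.01, 13.28 and 13.30 on wt arrays. Socs2-/- arrays 1 to 3 lay above every wt array and array 4 lay among them. The difference was 0.37 (SE 0.32, limma adjusted p = 0.689), a 1.29-fold higher mean. Rps13 averaged 11.94 ± 0.40 in Socs2-/- (SD, n = 4) and 11.42 ± 0.36 in wt (SD, n = 5), a difference of 0.52, while its dimmer probe had -0.50. Rps7 had 11.93, 11.83, 11.92 and 10.66 on Socs2-/- arrays, where array 4 is the low one, and averaged 11.11 ± 0.45 in wt (SD, n = 5). Its difference of 0.48 was 0.30 without wt array 3, 0.78 without Socs2-/- array 4 and 0.18 without Socs2-/- arrays 1 and 2. Rps2, at the entry of the message channel, had differences of 0.32 and 0.43 with its 2 probes, and the first was 0.14 without Socs2-/- arrays 1 and 2. Rps21 (-0.03) was the 1 member of the group below 0.

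Socs2-/- array 4 recurs as the lowest Socs2-/- array for Rps10, Rps14, Rps7 and Rplp1. Small subunit genes had a median deviation of -0.15 on that array, against 0.25, 0.15 and 0.14 on Socs2-/- arrays 1 to 3.

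The genes mutated in Diamond-Blackfan anaemia were examined as a list of 21, of which 11 were measured. Of these, 10 were above 0 and 1, Rps20, was below, with a median of 0.12. Rps19, the gene most often mutated in patients, read 13.52, 13.59, 13.48 and 13.39 on Socs2-/- arrays and 13.35, 13.40, 13.35, 13.33 and 13.47 on wt arrays. All of its arrays fell within a narrow span in which array 4 of Socs2-/- overlapped the wt values, and the difference was 0.12 (SE 0.30, limma adjusted p = 0.906), or 0.06 without Socs2-/- arrays 1 and 2. The others lay between 0.01 for Rps26 and 0.54 for Rps10, with Rps24 at 0.03, Rps29 at 0.10 and Rpl27 at 0.16.

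Tested members outside the naming rule numbered 21, with 14 of the large and 7 of the small subunit, and Rpl12, Rpl39 and Rps2 are among them. All 21 were above 0 (16 without Socs2-/- arrays 1 and 2), with differences from 0.03 to 0.32 and unadjusted limma p-values from 0.337 to 0.918. Rps6, the target of the S6 kinases, is named for its known role with its values already seen, and averaged 11.41 ± 0.56 in Socs2-/- (SD, n = 4) and 11.36 ± 0.34 in wt (SD, n = 5). The rule names up to 5 members per direction and subunit, and neither subunit had more than 5 members below 0, so the lack of negative values here follows from the rule.

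Paralogues of ribosomal proteins that lie outside the name pattern were measured for 5 of 10 genes, with 4 above 0. Rpl22, whose product is known in mice to restrain its paralogue Rpl22l1, ranged from 6.85 to 10.72 on Socs2-/- arrays and from 7.34 to 9.43 on wt arrays, a difference of 0.34 (SE 0.80) that ran from -0.36 without Socs2-/- array 3 to 0.93 without Socs2-/- array 2. Without Socs2-/- arrays 1 and 2, the Rpl22 difference was 1.73 (unadjusted p = 0.0445, adjusted p = 0.755 in limma). Rpl22l1 had 0.37 (SE 0.42). Rps3a1, the mouse gene for the small subunit protein S3a, averaged 12.44 ± 0.18 in Socs2-/- (SD, n = 4) and 12.11 ± 0.23 in wt (SD, n = 5), a difference of 0.33. Rpl7l1 had 0.59 and Rpl36al 0.11, and without Socs2-/- arrays 1 and 2 these were -0.09 and -0.11. With the mean of all its probes, Rpl7l1 had 0.23. Rps27l, a p53-inducible paralogue of Rps27, had -0.30.

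Other transcripts with a terminal oligopyrimidine tract, were read as a separate list, together with other genes of the translation machinery. It holds elongation and initiation factors beside chaperones, RNA-binding and structural proteins. Of 24 listed, 22 were tested, 12 were above 0 and the median was 0.01. At an unadjusted p under 0.05 in limma, 1 of 22 was higher (2.29% of all genes), the membrane protein gene Tmem97 at 1.11. Another 1 was lower (7.87% of all genes), the helicase gene Eif4a2 (-1.13, or -0.36 without Socs2-/- arrays 1 and 2). The elongation factor subunit Eef1b2 read 12.96, 12.81, 12.58 and 12.30 on Socs2-/- arrays and 12.08, 12.29, 12.12, 12.10 and 12.27 on wt arrays. Its groups did not overlap (0.983% of all genes in this direction), and the difference was 0.49 (SE 0.32, limma adjusted p = 0.602), or 0.27 without Socs2-/- arrays 1 and 2. The groups of Eif4a2 did not overlap either, in the lower direction (2.72% of all genes). The histone chaperone Nap1l1 had -0.70. With the mean of all probes of a gene, Eef1b2 had 0.22, Eif4a2 -0.77 and Nap1l1 -0.49. Whether the 2 lists differ was not tested.

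Markers of the cells in the sort were read beside these results. The LSK list (8 of 10 tested) had mean levels of 9.11 to 10.35 on Socs2-/- arrays and 8.85 to 10.38 on wt arrays. In that list 4 of 8 were above 0, with differences from -1.40 for Slamf1 to 0.93 for Procr. Of its defining genes, Ly6a, which encodes Sca-1, was not among those tested. Kit read 6.84 on Socs2-/- array 2 and 7.94 to 11.23 on the other 8 arrays. Erythroid markers (6 of 15 tested) had mean levels of 10.60 to 12.04 on Socs2-/- arrays and 9.96 to 10.64 on wt arrays. Of those 6, 5 had higher means in Socs2-/- and Tfrc, the transferrin receptor, did not (-0.12, or 1.39 without Socs2-/- arrays 1 and 2). The 1 of 6 with an unadjusted p under 0.05 in limma (2.29% of all genes in this direction) was the alpha-globin gene Hba-a1. It read 13.32, 10.41, 8.92 and 10.52 on Socs2-/- arrays, against 6.84, 6.84, 7.01, 7.30 and 9.10 on wt arrays (limma adjusted p = 0.233). The beta-globin genes Hbb-b2, Hbb-bs and Hbb-bt had differences of 0.70, 0.52 and 0.51, which were -0.20, -0.45 and -0.36 without Socs2-/- arrays 1 and 2. Mean levels of myeloid markers (8 of 14) reached 9.70 on Socs2-/- arrays and 10.33 on wt arrays, with a median difference of -0.15. Among them Csf1r, a cytokine receptor of the macrophage lineage, was 1.46 higher (limma adjusted p = 0.317). It was the 1 of 8 with groups apart in this direction (0.983% of all genes). The granule genes Mpo and Ctsg had -1.58 each, S100a9 -0.64, Lyz1 -0.21 and Lyz2 -0.10, while Prtn3 had 0.34 and Camp 0.26. Stromal and endothelial markers (5 of 9) had mean levels of 7.12 to 8.83 on Socs2-/- arrays and 8.03 to 9.15 on wt arrays, and 4 of 5 were below 0 with a median of -1.06. Of these Vcam1 had -1.57, or -0.63 without Socs2-/- arrays 1 and 2. Leaving those arrays out gave -0.81 for Emcn, but 0.68 for Cxcl12, 0.14 for Col1a2 and 0.45 for Pecam1. Median differences were -0.29 for megakaryocyte markers (3 of 9 tested) and -0.39 for mast cell and basophil markers (3 of 7). They were 0.04 for B cell markers (4 of 9) and -0.36 for T and NK cell markers (5 of 10). The part of all these markers in the ribosomal protein values was not tested. In bulk arrays a change in the mix of cells and a change in transcript per cell cannot be told apart.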

How the data were processed

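Illumina bead arrays were hybridised with amplified total RNA. Values were the authors' deposited log2 intensities. Per the submitters' processing notes lumi was used. No source used here gives its version or settings. Whether the scale is plain log2 or variance stabilised is thus unknown, and differences of dim probes may be understated. A table of 18 columns that no label maps to samples was not used. Groups and replicate numbers came from sample titles. Members were matched by symbol, and the Entrez identifiers of all 84 matched the RefSeq gene table with 0 symbols changed.

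In R 4.3.3, limma 3.58.1 compared the genotypes (two-sided moderated test from lmFit and eBayes, p-values adjusted by Benjamini-Hochberg over 8543 genes) on probes above 7.5 on at least 4 of 9 arrays, with the probe of highest mean per gene. The procedure was tested on simulated data. The number of arrays limits the precision. Same-numbered arrays did not deviate together over all genes (correlations -0.07 to 0.04). Such correlations cannot show that arrays were unpaired, and the main fit used no pairing. The named genes were Socs2, up to 5 members per direction and subunit with the smallest unadjusted p, the Diamond-Blackfan members, the stalk genes, paralogues and up to 4 other translation genes. Alternatives covered the filter, probe choice, a replicate block, array weights, the variance model, scaling and arrays left out. The members and lists were chosen with earlier results of these data known.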

Additional observations from a re-analysis of the deposited data

Results flagged for a closer look

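Of 80 groups of named genes checked, 7 held a sample whose gap to its nearest neighbour was large for its group, where chance gives about 1 in 20. Rpl13a read 12.77 on Socs2-/- array 1, above the other Socs2-/- arrays. Rps7 read 10.66 on Socs2-/- array 4, below the others. Rps3a1 read 12.71 on Socs2-/- array 2, above the others. Among wt arrays, array 3 stood apart for Rpl4 (6.87, low), Rpl36al (11.99, low) and Socs2 (10.36, high), and array 1 stood apart for Rpl17 (6.84, low).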

How the results depend on the processing

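The number of genes past the adjusted threshold was 1 in the main setting, and 2 with no filter, 3 with values above 7.5 on all 9 arrays, 2 with each probe tested alone, and 0 with the replicate block, the variance trend, centred arrays, Socs2-/- arrays 1 and 2 left out, genes of mean above 12 alone, or the trend without those arrays. It ran from 0 to 7 with 1 array left out. Large subunit members at an unadjusted p under 0.05 numbered 0 in the main setting, 3 with no filter, 1 with each probe alone, 1 with the replicate block, 4 with the trend, 1 with centred arrays, 1 without Socs2-/- arrays 1 and 2 (1 also with the trend), 2 with mean above 12, and 0 to 1 with 1 array left out. Small subunit members numbered 1 in the main setting, 5 with no filter, 0 with array weights, 4 with the trend, 0 without Socs2-/- arrays 1 and 2, 3 with mean above 12, and 0 to 1 with 1 array left out. With no filter, the large subunit had 3 higher and 0 lower, and the small subunit 4 higher and 1 lower. Over all 19057 genes, 571 were then higher and 920 lower. With the trend, each subunit had 3 higher and 1 lower, against 2.24% and 8.97% of all genes. Of the 331 genes with a mean above 12, 31 were then higher and 70 lower. With each probe alone, the large subunit had 1 higher and the small subunit 1 lower, against 450 and 1310 of 16522 probes. None of these counts was tested against that of all genes. The large subunit median became 0.26 with centred arrays and 0.082 without Socs2-/- arrays 1 and 2 (0.082 also with the trend), and was 0.12 to 0.20 with 1 array left out. The small subunit median became 0.225 with centred arrays and was 0.11 to 0.24 with 1 array left out. The settings with mean above 12 and with the trend without those arrays were chosen after seeing the data.

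Named genes kept their direction in all but 48 of 773 alternatives. With the mean of all probes, Rpl31 became -0.048, Rplp0 0.37, Rps24 -0.059 and Rps3 0.11. Rpl17 became 0.22 with the replicate block and 0.12 with array weights. Arrays with the same number are not shown to be paired, and the block is given for completeness. With centred arrays, Rpl17 became 0.024, Rps16 0.055, Rps21 0.084 and Rps3 0.10. Without Socs2-/- arrays 1 and 2, with or without the trend, Rpl14 became 0.37, Rpl17 1.16, Rpl26 -0.030, Rpl36al -0.11, Rpl7l1 -0.087, Rplp1 -0.090, Rps26 -0.0085 and Rps3 0.0025. With 1 array left out, differences ran from -0.97 to 0.97 for Rpl17, -0.36 to 0.93 for Rpl22, -0.017 to 0.10 for Rpl26, -0.31 to 0.094 for Rps16, -0.090 to 0.035 for Rps21, -0.031 to 0.068 for Rps24, -0.073 to 0.10 for Rps26 and -0.072 to 0.036 for Rps3. The cause of these changes was not tested.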
